A study of Mus musculus with 12 samples.

Results

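The comparison described here is the effect of co-culture with brain microvascular endothelial cells (bmvECs) on neural stem/progenitor cells (NPCs) with wild-type p53. It draws on 6 of the 12 RNA-seq libraries of the series: 3 of p53+/+ NPCs alone and 3 of p53+/+ NPCs in co-culture. The libraries were taken by their names and paired by the number in the name, 17_9, 25_9 or 1_10, so each group holds 1 library of each number. The sources state that libraries with the same number are paired, but not which repeat a number stands for. Each number is called an experiment here for short. All genes were members: 24108 were listed and 13745 passed the filter on low counts. The NPCs came from the subventricular zone (SVZ) of C57BL/6 mice at postnatal days 9 to 12 and were expanded with EGF and bFGF. Those cultured alone were kept for 48 h on laminin, and those in co-culture for 48 h on a monolayer of bought primary bmvECs of C57BL/6J mice, from which they were taken by selective trypsinization. Contact with bmvECs, substances that they release and the change of surface from laminin cannot be told apart in this design. The p53-/- NPCs, the comparison genotype, were made from p53LoxP/LoxP NPCs by Cre recombination in culture. The methods name, as the control for the Cre virus, an adenovirus with the promoter alone, and the labels call the p53+/+ NPCs wild type. Whether the p53+/+ libraries carry that control virus is not given for them in the sources used here. How many mice lie behind a library is not given either, so the p-values measure a spread between libraries and not between mice. It is the spread left after group and experiment, over all 12 libraries of both genotypes.

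Neural stem cells of the SVZ, called type-B cells, are astroglia-like cells that lie beside blood vessels and are mostly quiescent. When activated they divide, give rise to transit-amplifying progenitors and, through these, to neuroblasts and oligodendrocytes. Contact with endothelial cells is known to hold NPCs out of the cell cycle in culture, through the ephrin B2 and Jagged1 that endothelial cells display. Quiescent stem cells are known for low ribosome production, high lysosome content and the use of fatty acids as fuel.

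The 12 libraries held 16509710 to 22245224 counts. In the p53+/+ libraries the most abundant gene was Eef1a1, a translation factor, in all 3 libraries of NPCs alone and Gfap, the intermediate filament of astroglia, in all 3 co-cultures. No library of bmvECs on their own was analysed, so the level that endothelial RNA carried over with the NPCs would give each gene cannot be set from these libraries. The 9 defining endothelial markers summed to 14.1 to 15.7 counts per 1000000 (CPM) alone and to 94.0 to 143 CPM in co-culture. Of the 34 endothelial genes tested, 29 were higher and 2 lower, and Tie1 had no count in any library of NPCs alone. Of these 34 genes 17 had fewer than 10 counts in every library of NPCs alone and passed the filter on low counts through the co-cultures, so these counts are a description only. The defining markers of mural cells summed to 1.27 to 1.94 CPM alone and 4.85 to 6.48 CPM in co-culture. Those of microglia summed to 1.34 to 1.87 CPM alone and 4.27 to 5.87 CPM in co-culture. Those of fibroblasts summed to 1.58 to 2.94 CPM alone and 2.14 to 2.9 CPM in co-culture. The whole endothelial list summed to 235 to 302 CPM alone and 319 to 429 CPM in co-culture. Over the 6 libraries the other whole lists summed to 189 to 818 CPM for mural cells, with the highest in the library of NPCs alone of 17_9. They summed to 33.9 to 90.3 CPM for fibroblasts and 6.46 to 16.9 CPM for microglia. Of the defining markers, 1 of 5 for fibroblasts was at 0 in all 3 co-cultures and 1 of 9 for microglia in all 3 libraries of NPCs alone. The defining type-B and astroglial markers summed to 9260 to 10600 CPM alone and 21700 to 30400 CPM in co-culture, so the labelled cell type was present in both groups. In RNA from a mixture, fewer cells of a type and less RNA per cell cannot be told apart. The part of bmvEC RNA in the results below was not tested. A fit without the endothelial, mural, fibroblast and microglia genes is given, but it only drops those genes. It cannot show how much bmvEC RNA the other genes hold.

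**Figure D1:**
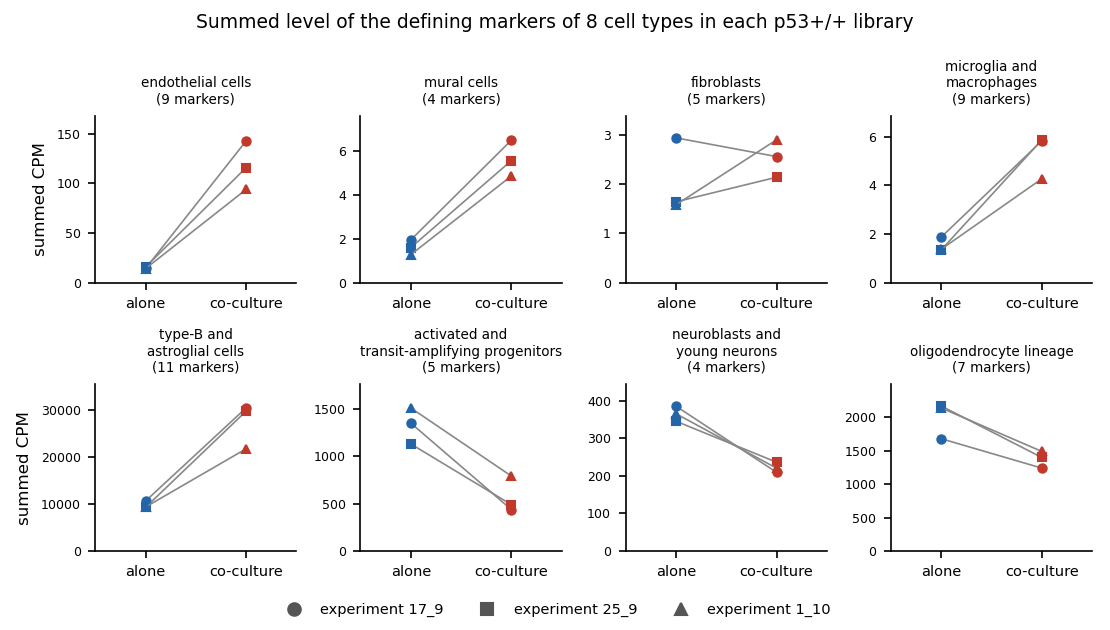
Summed CPM of the defining markers of 8 cell types (y axis, CPM) in the 3 p53+/+ libraries alone (blue) and the 3 in co-culture (red), with a line joining the libraries of an experiment. Endothelial markers rose from at most 15.7 to at least 94.0 CPM, type-B and astroglial markers from at most 10600 to at least 21700 CPM, and markers of activated progenitors fell from at least 1130 to at most 791 CPM.

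The library of p53+/+ NPCs alone of experiment 17_9 stood apart from the other libraries of its group. Its counts differed from theirs by 49.3 and 50.7 times the variance that counting alone gives, against 13.2 between the other libraries of NPCs alone and 15.6 to 37.3 between the co-cultures. Genes of contraction and of the early response to serum were high in it. Ctgf, a matrix-associated growth factor, stood at 533, 22.25 and 8.59 CPM alone and 5.07, 6.14 and 2.21 CPM in co-culture. Acta2, the smooth muscle actin, stood at 432, 55.0 and 44.4 CPM alone and 14.0, 17.6 and 19.7 CPM in co-culture. In both genes that library was the highest of the 6. Ctgf was called lower in co-culture (log2 -3.39 ± 1.18, adjusted p = 0.0305), but not without that library, at -2.88 (adjusted p = 0.0765), and again without the whole experiment 17_9, at -1.87 (adjusted p = 3.77e-07). For Acta2 (log2 -2.35 ± 0.80, adjusted p = 0.028) the values were -1.88 (adjusted p = 0.0805) and -1.39 (adjusted p = 2.02e-06). Both calls were also lost without the co-culture library of 17_9 and at a threshold of 0.01, that of Ctgf without the library of NPCs alone of 25_9, and that of Acta2 without experiment 25_9 or its co-culture library. Of the 38 genes of a list of YAP and SRF targets and contractile proteins, 18 were lower and 3 higher with all libraries, and 9 lower without that library and 20 without the experiment.

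Co-culture changed about as many genes upwards as downwards, and the rises were larger. At an adjusted p under 0.05, co-culture raised 3604 of the 13745 genes (26.2%) and lowered 3319 (24.1%). Changes over 2-fold were found in 1574 of the higher genes (11.5% of all tested) and 690 of the lower genes (5.02%). Changes over 8-fold were found in 219 and 11 genes. These counts include genes near 0 in NPCs alone. With at least 10 counts required in every library, 1014 genes were over 2-fold higher and 570 over 2-fold lower. The median size of a change was 0.88 on the log2 scale for higher genes and 0.61 for lower genes, and the median over all genes tested was 0.0029. The 3 experiments gave the same direction for 3586 of the higher and 3305 of the lower genes, and the differences within pairs correlated across genes with r of 0.838, 0.806 and 0.898, genes not being independent replicates. The 6 p53-/- libraries entered the same model and so share in its estimates of the spread and of the experiments, and a model of only the 6 p53+/+ libraries called 3624 genes higher and 3441 lower. Without the experiment number as a block the model called 2908 genes higher and 2522 lower. The counts rested most on experiment 25_9, without which 2144 genes were called higher and 1658 lower. Without the endothelial, mural, fibroblast and microglia genes the counts were 3581 and 3300. Gene lists are read below against the shares of 26.2% and 24.1%, apart from the endothelial genes and the antiviral effectors, many of which passed the filter only through the co-cultures. Some other lists held a few such genes, among them 4 of 39 potassium channel genes and 2 of 33 astroglial channel genes. Their shares of higher genes are read with that limit.

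**Figure D2:**
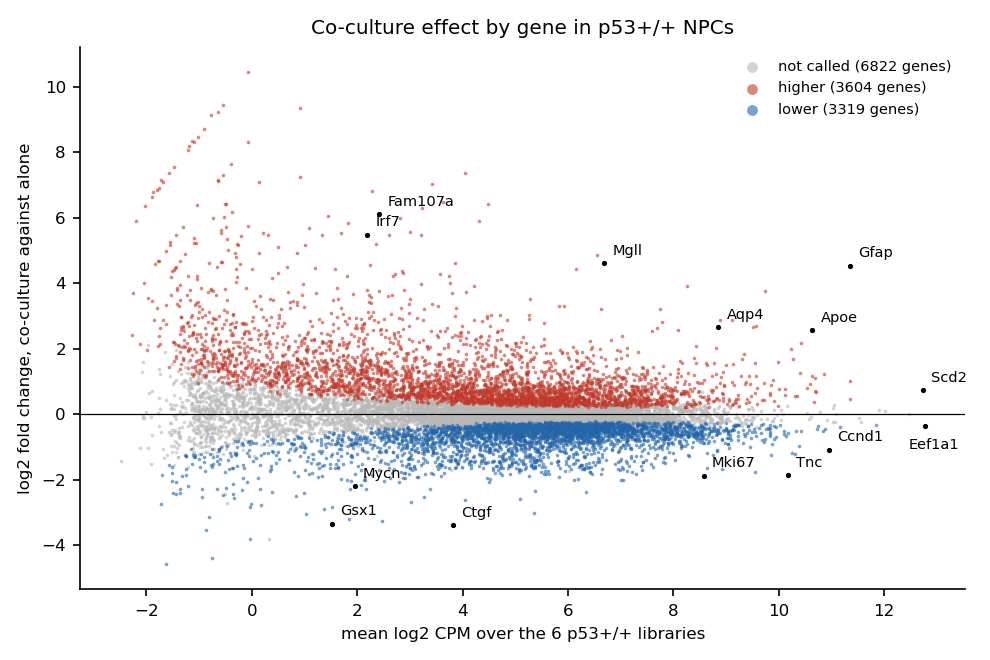
Log2 fold change of co-culture against alone (y axis) against the mean log2 CPM of the 6 p53+/+ libraries (x axis) for 13745 genes, coloured by call. The 3604 higher genes reach further from 0 than the 3319 lower genes, and fitted values of genes with few counts at the upper left depend on the prior count of the model.

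**Figure D3:**
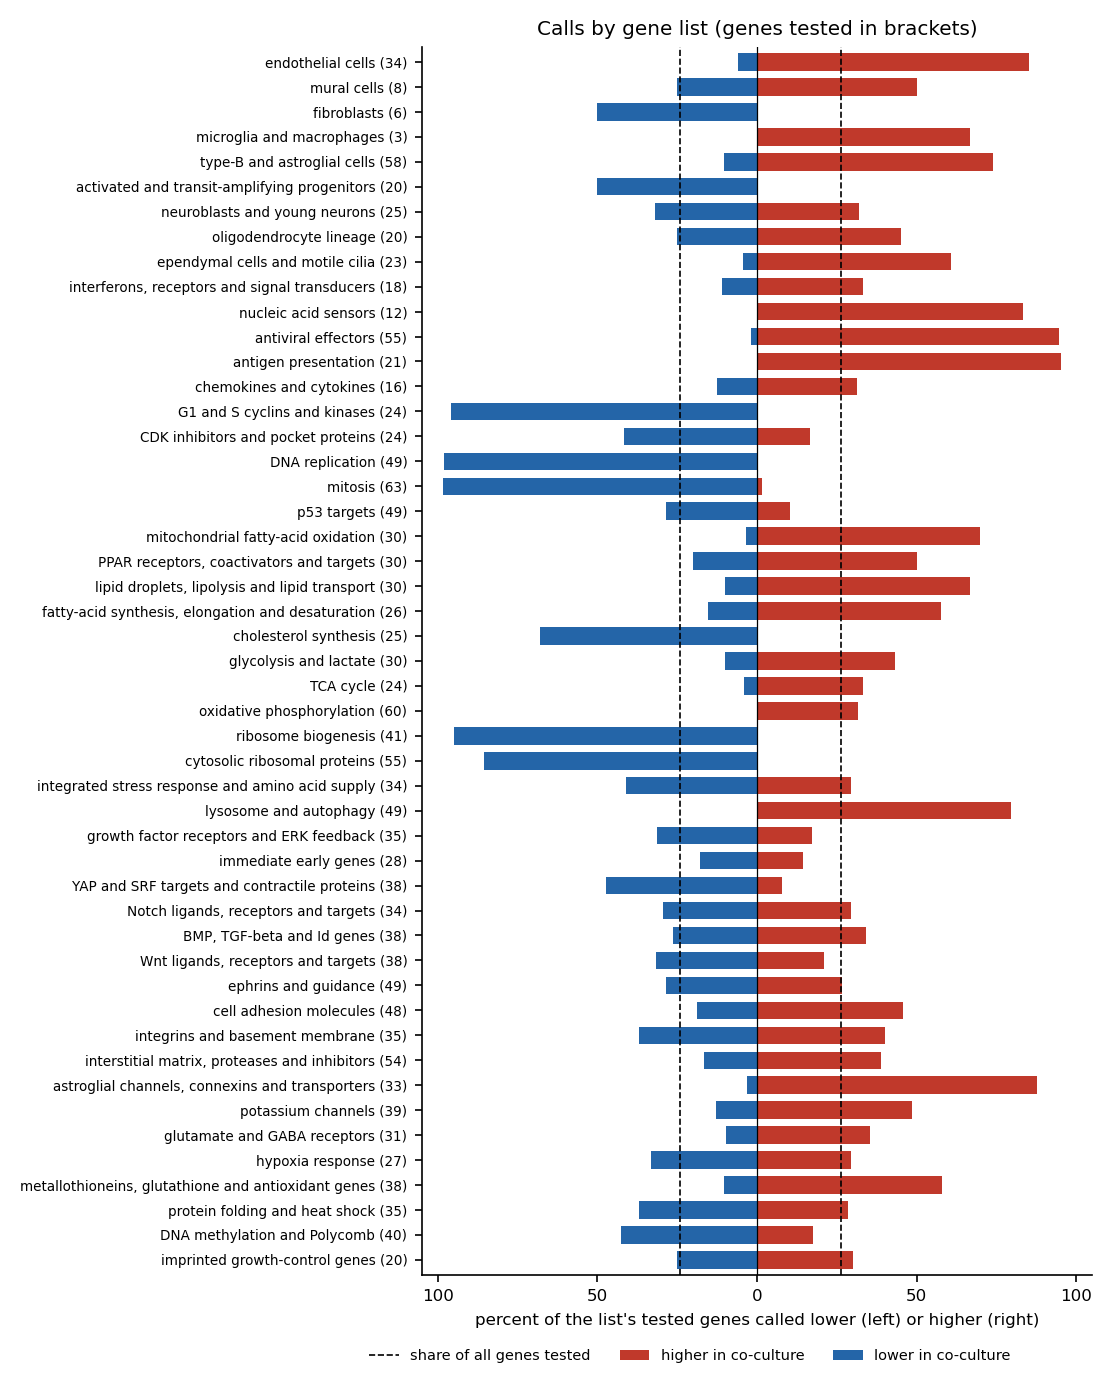
Percent of the tested genes of each of 49 lists that were called lower (blue, to the left) or higher (red, to the right) in co-culture, with dashed lines at 24.1% and 26.2%, the shares over all genes tested. Lists of cell division and ribosomes lie almost wholly to the left, and those of astroglial transport, antigen presentation and lysosomes almost wholly to the right. The bars of endothelial genes and antiviral effectors are not read against the lines, since 17 and 10 of their genes passed the filter only through the co-cultures. Some other lists held such genes too, with 4 among the potassium channels.

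The largest rises outside the endothelial and interferon lists included those of astroglial and lipid genes. Gfap stood at 656, 602 and 411 CPM alone and 15065, 15515 and 8652 CPM in co-culture, a log2 fold change of 4.53 ± 0.16 (SE; adjusted p = 8.12e-09). Fam107a, an actin-binding protein found in radial glia and astrocytes, stood at 0.437, 0.894 and 0.458 CPM alone and 56.2, 47.4 and 28.0 CPM in co-culture (log2 6.11 ± 0.26, adjusted p = 1.63e-08). In both genes every co-culture library lay above every library of NPCs alone. Mgll, the lipase that frees a fatty acid from monoacylglycerol, stood at 14.5, 23.5 and 26.0 CPM alone and 521, 612 and 413 CPM in co-culture (log2 4.61 ± 0.26, adjusted p = 9.98e-08). Serpina3n, a secreted protease inhibitor of reactive astrocytes, stood at 17.1, 19.7 and 15.7 CPM alone and 604, 596 and 362 CPM in co-culture (log2 4.86 ± 0.21, adjusted p = 1.69e-08). These groups did not overlap either. The others of the largest rises were Lgals3bp (4.44 ± 0.21), a secreted glycoprotein that binds galectins, Lgi4 (4.38 ± 0.23), a secreted glial protein, Padi2 (4.28 ± 0.22), which converts arginine in proteins to citrulline, the neuropeptide gene Nmb (4.23 ± 0.31), the calcium-activated potassium channel Kcnn2 (3.96 ± 0.20) and Trim34a (4.31 ± 0.18), all on the log2 scale. Adjusted p for these 6 genes was 9.16e-07 or lower. In all, 20 genes were called higher with no count in the 3 libraries of NPCs alone. Among them Plin4, a coat protein of lipid droplets, reached 3.70, 2.50 and 2.002 CPM in co-culture, and Etnppl, a phospholipid enzyme of astrocytes, 4.30, 4.28 and 1.90 CPM.

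Most type-B and astroglial genes rose. Of 58 tested, 43 were higher and 6 lower, with a median log2 fold change of 1.01. Aqp4, the water channel of astroglial endfeet, stood at 201, 175 and 180.4 CPM alone and 1351, 1086 and 1061 CPM in co-culture (log2 2.65 ± 0.19, adjusted p = 6.36e-07). Slc1a2 and Slc1a3 encode the glutamate transporters GLT-1 and GLAST. Slc1a2 stood at 169, 213 and 237 CPM alone and 1721, 1339 and 1418 CPM in co-culture (log2 2.87 ± 0.26, adjusted p = 4.68e-06), and Slc1a3 rose less, by 1.02 ± 0.12 on the log2 scale (adjusted p = 3.64e-05). The sodium pump subunit Atp1b2 rose by 2.18 ± 0.21, glutamine synthetase Glul by 2.004 ± 0.11, the glycolytic enzyme Aldoc by 2.70 ± 0.16, the connexin Gja1 by 1.83 ± 0.13 and the matrix protein Sparcl1 by 3.92 ± 0.17. The apolipoprotein Apoe, which carries lipid between glia and neurons, stood at 599, 877 and 529 CPM alone and 4271, 5390.1 and 2549.9 CPM in co-culture (log2 2.57 ± 0.19, adjusted p = 8.47e-07). Gjb6, a connexin of mature astrocytes, had no count in NPCs alone and 3.38, 2.14 and 1.00 CPM in co-culture. The progenitor filament Nes stood at 2062, 1726 and 1834 CPM alone and 835, 929.8 and 1127 CPM in co-culture and fell (log2 -0.96 ± 0.16, adjusted p = 0.00033), and the groups did not overlap. The stem cell factor Sox9 rose by 0.95 ± 0.11 (adjusted p = 2.92e-05). Fabp7, a lipid-binding protein of radial glia, was lower by a small amount (log2 -0.34 ± 0.13, adjusted p = 0.0454) and Sox2 higher (log2 0.43 ± 0.13, adjusted p = 0.0163). These calls were lost in 12 and 6 of the 19 alternative fits.

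**Figure D4:**
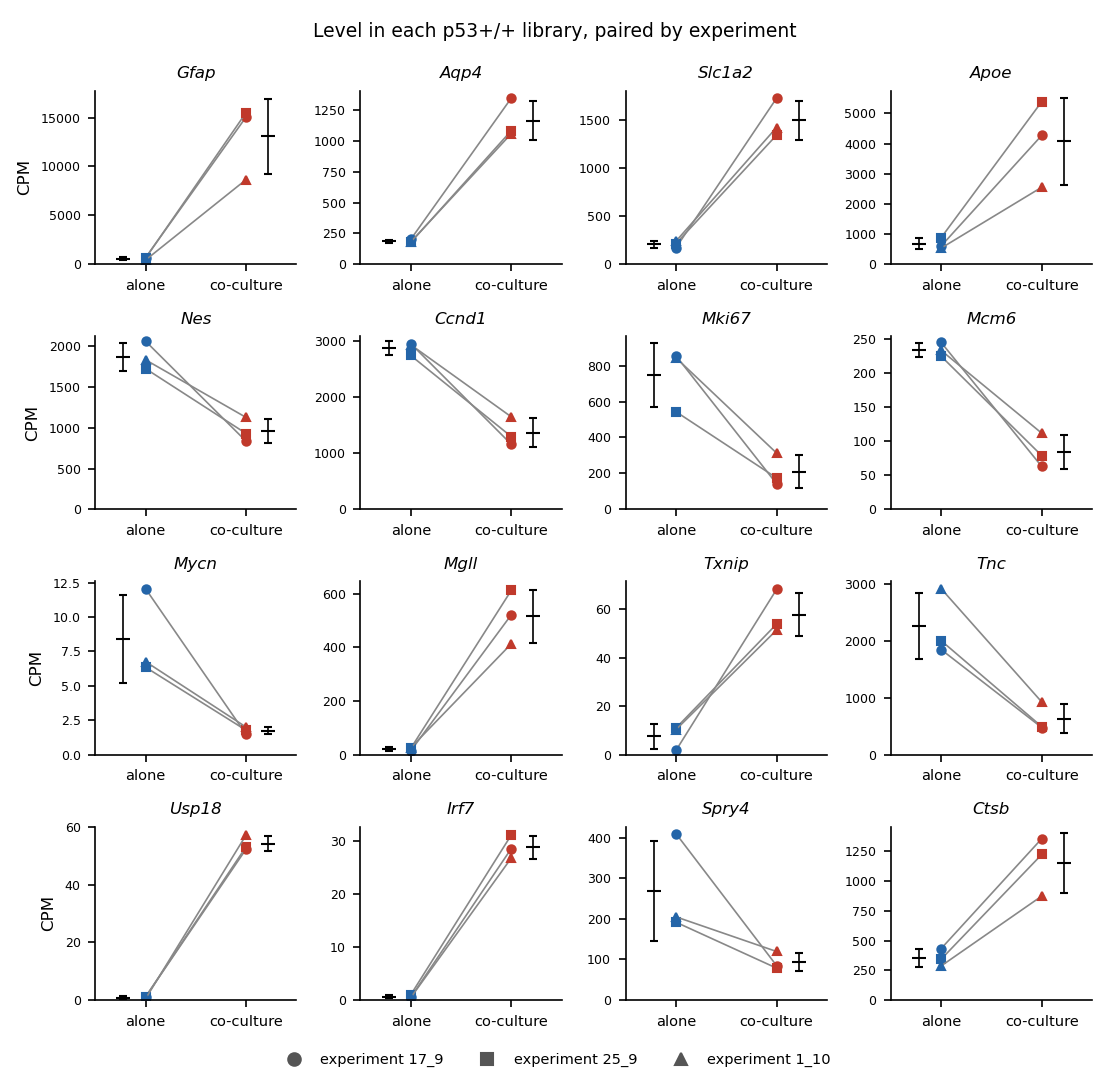
CPM of 16 genes (y axes, starting at 0) in the 3 p53+/+ libraries alone (blue) and the 3 in co-culture (red), joined by experiment, with the group mean and SD (n = 3) in black beside the points. In each of the 16 genes all libraries of one group lie above all libraries of the other.

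Most genes of astroglial channels, connexins and transporters rose. Of 33 tested, 29 were higher and 1 lower, with a median log2 fold change of 1.28. Gabbr2, a subunit of the metabotropic GABA receptor, stood at 0.687, 0.646 and 0.458 CPM alone and 13.3, 14.1 and 10.9 CPM in co-culture (log2 4.44 ± 0.28, adjusted p = 2.64e-07). The urea transporter Slc14a1 stood at 2.62, 1.89 and 1.02 CPM alone and 26.7, 28.9 and 13.4 CPM in co-culture (log2 3.64 ± 0.29, adjusted p = 1.52e-06). In neither gene did the groups overlap. The GABA transporter Slc6a11 rose by 1.56 ± 0.28 (adjusted p = 0.0006), while the potassium channel Kcnj10 was not called (log2 0.29 ± 0.14, adjusted p = 0.094), a call gained with only the 6 p53+/+ libraries. Among 39 potassium channel genes 19 were higher and 5 lower, and 4 of the 39 passed the filter only through the co-cultures. Kcnn2 stood at 2.87, 1.84 and 2.24 CPM alone and 46.4, 38.2 and 25.3 CPM in co-culture, Kcns1 rose by 3.39 ± 0.68 (adjusted p = 0.00139) and Kcnt1, a sodium-activated channel, by 3.13 ± 0.24 (adjusted p = 1.19e-06). Among 31 glutamate and GABA receptor genes 11 were higher and 3 lower. The AMPA receptor subunit Gria1 rose by 1.65 ± 0.15 and the kainate receptor subunit Grik3 fell (log2 -1.79 ± 0.31, adjusted p = 0.000569). Without experiment 25_9, 12 potassium channel genes and 7 receptor genes were called higher, and 2 and 1 lower. Without any single library of 17_9 or 25_9, 3 potassium channel genes were lower, and without the co-culture library of 17_9 1 receptor gene was.

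Markers of activated progenitors fell or did not pass the test, and none rose. Of 20 tested, 10 were lower, with a median log2 fold change of -0.47. Egfr, the receptor for the EGF in the medium and a marker of activated stem cells, stood at 426, 472 and 578 CPM alone and 227, 230.3 and 383 CPM in co-culture (log2 -0.84 ± 0.14, adjusted p = 0.000402). Insm1, a transcription factor of dividing neural precursors, stood at 7.75, 10.8 and 5.75 CPM alone and 0.926, 2.18 and 1.84 CPM in co-culture (log2 -2.27 ± 0.40, adjusted p = 0.000599). The groups did not overlap in either gene. Gsx1, a homeobox factor of ventral forebrain progenitors, stood at 10.7, 11.3 and 5.70 CPM alone and 0.545, 1.41 and 0.685 CPM in co-culture. Among 25 neuroblast and young neuron genes 8 were higher and 8 lower. Cd24a, a surface protein of neuroblasts, stood at 260.3, 205 and 235 CPM alone and 87.1, 83.2 and 109 CPM in co-culture (log2 -1.33 ± 0.11, adjusted p = 1.72e-06), and Sox11 fell as well (log2 -0.96 ± 0.17, adjusted p = 0.000578). Against them the tubulin Tubb3 rose by 1.21 ± 0.12 (adjusted p = 7.72e-06), the tau gene Mapt by 1.89 ± 0.20 (adjusted p = 1.29e-05) and the postsynaptic scaffold gene Dlgap1 by 2.53 ± 0.22 (adjusted p = 3.29e-06). Without experiment 25_9, 4 genes of this list were called higher and 4 lower.

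Genes of the oligodendrocyte lineage changed in both directions. Of 20 genes tested, 9 were higher and 5 lower. Pdgfra, the receptor that marks oligodendrocyte precursors, stood at 23.4, 21.9 and 17.7 CPM alone and 8.72, 12.7 and 7.43 CPM in co-culture (log2 -1.15 ± 0.16, adjusted p = 0.000119). The lineage factors Olig1 (log2 -0.57 ± 0.10, adjusted p = 0.000583) and Olig2 (log2 -0.76 ± 0.11, adjusted p = 0.000104) fell with it. Sox10, which directs later stages, stood at 0.250, 3.58 and 2.14 CPM alone and 10.4, 12.2 and 10.6 CPM in co-culture (log2 2.62 ± 0.58, adjusted p = 0.00255). The myelin gene Mbp rose by 1.71 ± 0.39 on the log2 scale (adjusted p = 0.00319). Of 23 genes of ependymal cells and motile cilia 14 were higher and 1 lower (9 higher without experiment 25_9). Tekt1, a filament protein of cilia and flagella, stood at 3.12, 0.745 and 1.58 CPM alone and 11.2, 11.01 and 5.48 CPM in co-culture (log2 2.40 ± 0.36, adjusted p = 0.000187), and Meig1 rose by 2.26 ± 0.26 (adjusted p = 2.32e-05). The master factor of motile cilia, Foxj1, was higher by a smaller amount (log2 0.47 ± 0.15, adjusted p = 0.022), and lost its call in 8 of the 19 alternative fits.

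Co-culture lowered nearly every gene of the cell division machinery that was tested. Of 24 cyclins, kinases, E2F and Myc factors and related genes, 23 were lower, and the exception was Ccnd3 (log2 -0.24 ± 0.11, adjusted p = 0.0803). Besides genes of G1 and S phase this list holds some of later phases. Cdk1 and Ccnb1 stand in the mitosis list too, so the counts of these lists overlap. Ccnd1, the cyclin through which growth factors drive cells into S phase, stood at 2961, 2749 and 2941 CPM alone and 1162, 1299 and 1652 CPM in co-culture (log2 -1.08 ± 0.13, adjusted p = 4.45e-05). Ccnd2 fell about as much (log2 -1.19 ± 0.14, adjusted p = 2.82e-05). Ccne2, a cyclin of S phase entry, stood at 53.9, 41.7 and 38.8 CPM alone and 9.75, 9.37 and 17.4 CPM in co-culture (log2 -1.97 ± 0.30, adjusted p = 0.000219). In these genes the highest co-culture library lay below the lowest library of NPCs alone. Mycn stood at 12.1, 6.36 and 6.76 CPM alone and 1.47, 1.77 and 2.002 CPM in co-culture (log2 -2.19 ± 0.35, adjusted p = 0.000292), with the library of NPCs alone of 17_9 the highest. Myc fell less (log2 -0.84 ± 0.18, adjusted p = 0.00183). Of 49 DNA replication genes 48 were lower and none was higher, and the exception was Rpa1 (log2 -0.10 ± 0.11, adjusted p = 0.461). Their median log2 fold change was -1.32. Of 63 mitosis genes 62 were lower and 1 was higher, with a median of -1.59. The exception was Pttg1, which encodes securin and rose by 0.82 ± 0.10 (adjusted p = 3.40e-05). Mki67, which encodes the proliferation antigen Ki67, stood at 855, 543 and 843 CPM alone and 143, 175 and 314 CPM in co-culture (log2 -1.88 ± 0.18, adjusted p = 7.55e-06). Ect2, a factor of cytokinesis, had the largest fall of the mitosis list (log2 -2.002 ± 0.20, adjusted p = 8.62e-06).

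Promoters of 4 replication genes are printed because a short element bound by E2F factors stands in them close to the gene's start. The letters searched were TTTGGCGC, TTTCCCGC, TTTGCCGC and TTTCGCGC on both strands, which can overlap on opposite strands. The 4 are the called replication genes with the largest falls among those that hold the element, promoters on a chromosome barred from printing being passed over. Sequences are RefSeq promoters of GRCm38.p6, read on the strand of the gene, and the capitals mark the element.
Orc1 (chr4:108579407-108579453, + strand): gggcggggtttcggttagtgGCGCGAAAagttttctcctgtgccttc
Cdc6 (chr11:98907993-98908040, + strand): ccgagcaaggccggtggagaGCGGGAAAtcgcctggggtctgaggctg
Mcm6 (chr1:128359725-128359835, - strand): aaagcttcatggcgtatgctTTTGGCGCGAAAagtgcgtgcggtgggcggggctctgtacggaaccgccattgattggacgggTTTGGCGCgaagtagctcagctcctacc
Mcm5 (chr8:75109336-75109387, + strand): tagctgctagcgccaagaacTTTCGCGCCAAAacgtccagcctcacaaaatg
Orc1 and Cdc6 place and load the replicative helicase at origins, and Mcm5 and Mcm6 are subunits of it. Orc1 stood at 13.0, 11.1 and 10.9 CPM alone and 2.67, 3.05 and 4.58 CPM in co-culture (log2 -1.78 ± 0.21, adjusted p = 2.66e-05). Mcm6 stood at 244, 224 and 233 CPM alone and 62.8, 78.7 and 112 CPM in co-culture (log2 -1.51 ± 0.17, adjusted p = 1.97e-05). Cdc6 fell by 1.58 ± 0.17 and Mcm5 by 1.45 ± 0.16 on the log2 scale, and in none of the 4 genes did the groups overlap. The element was in 10 of the 47 promoters listed for the replication genes (21.3%), in 4 of 53 for mitosis (7.55%) and in 3.18% of the promoters of all genes tested, each window being the 250 bases before a start. Over all promoters in the reference table the share was 1.86%. A second element, TTTGAA on either strand, known from genes of mitosis, was in 20 of the 53 mitosis promoters (37.7%), 5 of the 47 replication promoters (10.6%) and 10.2% of those of all genes tested, while over all promoters in the reference table it was in 5252 of 32851. These matches describe the letters of the windows and show no binding.

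Among the genes known to hold cells out of the cycle few rose. Of 24 CDK inhibitors, pocket proteins and related genes 4 were higher and 10 lower. Cdkn1a, the p21 inhibitor and a p53 target, stood at 458, 350.2 and 408 CPM alone and 389, 371 and 398 CPM in co-culture and was not called (log2 -0.06 ± 0.38, adjusted p = 0.905). The groups overlapped, and they also did for Cdkn1b, which encodes p27 (log2 -0.14 ± 0.11, adjusted p = 0.302). Cdkn2b, which encodes p15, rose from 31.2 ± 4.23 to 58.6 ± 7.23 CPM (SD, n = 3; log2 0.92 ± 0.14, adjusted p = 0.000176). Cdkn2c, which encodes p18, fell (log2 -0.62 ± 0.11, adjusted p = 0.00074). Among the pocket proteins, which bind E2F factors, Rbl1 fell with the cycling genes (log2 -1.45 ± 0.20, adjusted p = 0.000104) and Rbl2 was higher by a small amount (log2 0.38 ± 0.13, adjusted p = 0.0295), a call lost in 8 of the 19 alternative fits. Of 40 genes of DNA methylation and Polycomb 17 were lower and 7 higher. Ezh2, the Polycomb methyltransferase of dividing cells, stood at 164, 133 and 162 CPM alone and 58.1, 61.2 and 79.2 CPM in co-culture (log2 -1.22 ± 0.13, adjusted p = 1.49e-05). Its counterpart Ezh1 stood at 6.87, 7.10 and 8.04 CPM alone and 15.5, 13.1 and 13.0 CPM in co-culture and rose (log2 0.91 ± 0.21, adjusted p = 0.00316). Uhrf1 (log2 -1.42 ± 0.13) and Dnmt1 (log2 -0.98 ± 0.10), which copy DNA methylation at replication, fell with adjusted p of 5.53e-06 and 1.25e-05. Without experiment 25_9 the CDK inhibitor list held 2 higher and 6 lower genes, and the Polycomb list 2 and 12. The higher Polycomb genes numbered 3 without experiment 1_10 and 4 without either library of 25_9 or the co-culture library of 1_10, and the lower CDK inhibitor genes 6 without either library of 25_9.

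Nearly all genes of ribosome production fell. Of 41 ribosome biogenesis genes 39 were lower and none was higher, with a median log2 fold change of -0.68. The exceptions, not called, were Rrp1b and Utp6, at log2 -0.02 ± 0.11 and -0.26 ± 0.11 (adjusted p = 0.922 and 0.0623). Npm1, a chaperone of the nucleolus, stood at 468, 819 and 774 CPM alone and 192, 401 and 391.9 CPM in co-culture (log2 -1.10 ± 0.16, adjusted p = 0.000168). Nop58, a core protein of the particles that modify ribosomal RNA, stood at 167, 146 and 159 CPM alone and 53.6, 61.7 and 79.7 CPM in co-culture (log2 -1.30 ± 0.19, adjusted p = 0.000133). The co-culture libraries lay below those of NPCs alone in both. Of 55 cytosolic ribosomal protein genes 47 were lower and none was higher, by smaller amounts (median log2 fold change -0.51). These genes share reads with many processed pseudogenes, so single values are uncertain, and 27 were called lower without experiment 1_10 and 29 without the co-culture library of 17_9. Eef1a1 stood at 7713, 7898 and 8200.4 CPM alone and 6046, 6098 and 6442 CPM in co-culture (log2 -0.36 ± 0.10, adjusted p = 0.0102), a call lost in 5 of the 19 alternative fits. Of 34 genes of the integrated stress response and amino acid supply 14 were lower and 10 higher, and 9 and 6 without experiment 25_9. Mthfd2, the mitochondrial folate enzyme of growing cells, fell (log2 -1.47 ± 0.18, adjusted p = 4.07e-05), as did the response's transcription factor Atf4 (log2 -0.63 ± 0.12, adjusted p = 0.0011). Slc7a11, which imports cystine, rose by 2.17 ± 0.19 (adjusted p = 2.75e-06) and the stress protein Nupr1 by 2.39 ± 0.29 (adjusted p = 3.94e-05).

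Most lysosome and autophagy genes rose. Of 49 tested, 39 were higher and none was lower, with a median log2 fold change of 0.62. The protease genes Ctsb and Ctsd encode cathepsins B and D. Ctsb stood at 433, 343 and 287 CPM alone and 1357, 1224 and 874 CPM in co-culture (log2 1.70 ± 0.10, adjusted p = 9.98e-08). Ctsd stood at 729, 685 and 594 CPM alone and 1438, 1571 and 1123 CPM in co-culture (log2 1.03 ± 0.10, adjusted p = 8.62e-06). Hexa, a glycosidase, rose by 1.15 ± 0.11 (adjusted p = 5.50e-06), Cln3, a lysosomal membrane protein, by 1.29 ± 0.16 (adjusted p = 4.03e-05) and Tfeb, the factor that drives lysosome genes, by 0.92 ± 0.16 (adjusted p = 0.000618).

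Several feedback genes of growth factor signalling fell. Of 35 growth factor receptors and ERK feedback genes 11 were lower (31.4%, beside 24.1% of all genes) and 6 higher (17.1%, beside 26.2%). The share of lower genes is near that of all genes. Without experiment 25_9, 8 were lower and 4 higher. Spry4, an inhibitor induced by ERK signalling, stood at 410.5, 192 and 205 CPM alone and 85.0, 78.7 and 119.7 CPM in co-culture (log2 -1.43 ± 0.27, adjusted p = 0.000899). Spry1 fell (log2 -1.45 ± 0.22, adjusted p = 0.000217), as did the ERK phosphatase Dusp6 (log2 -1.18 ± 0.26, adjusted p = 0.00234). The groups did not overlap in Spry4, and its library of NPCs alone of 17_9 was the highest. Other ERK-induced genes did not pass the test, Etv4 (log2 -0.18 ± 0.10, adjusted p = 0.146) and Etv5 (log2 -0.26 ± 0.12, adjusted p = 0.102), although Etv5 was at -0.30 (adjusted p = 0.0257) without experiment 17_9. Receptors went both ways. Ntrk2, the receptor for BDNF, stood at 976, 849 and 827 CPM alone and 2292, 2084 and 1961 CPM in co-culture (log2 1.26 ± 0.11, adjusted p = 2.82e-06), and Met, the receptor for HGF, rose by 1.52 ± 0.17 (adjusted p = 2.12e-05).

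Notch genes changed in both directions. Of 34 tested, 10 were higher and 10 lower (5 lower without experiment 25_9), near the shares of all genes. Among the ligands, Jag1 stood at 83.4, 42.8 and 49.1 CPM alone and 23.6, 23.8 and 32.5 CPM in co-culture (log2 -1.06 ± 0.24, adjusted p = 0.00315). Dll4, an endothelial ligand, rose by 2.14 ± 0.51 (adjusted p = 0.00411), reaching 2.94, 2.73 and 1.90 CPM in co-culture. Among the receptors, Notch1 (log2 -0.58 ± 0.12, adjusted p = 0.00145) and Notch2 (log2 -1.03 ± 0.15, adjusted p = 0.000126) fell. Notch3 rose (log2 0.87 ± 0.19, adjusted p = 0.00232), and Notch4, known from endothelial cells, rose to 7.41, 6.23 and 4.37 CPM (log2 2.24 ± 0.23, adjusted p = 1.06e-05). Notch2 stood at 160.1, 137 and 126 CPM alone and 63.1, 63.6 and 78.0 CPM in co-culture, without overlap. Among the targets, Hes1 stood at 21.9, 28.3 and 28.8 CPM alone and 13.4, 16.1 and 18.2 CPM in co-culture and fell (log2 -0.73 ± 0.15, adjusted p = 0.00156). Hey1 rose (log2 0.85 ± 0.15, adjusted p = 0.000649), as did Dtx1, a Notch-induced ubiquitin ligase, from 16.9 ± 5.78 to 51.8 ± 7.62 CPM (log2 1.65 ± 0.19, adjusted p = 2.10e-05). Beside the rises of Dll4, Notch3 and Notch4, the summed endothelial markers rose from at most 15.7 to at least 94.0 CPM, and their part was not tested.

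The Id genes, which block neurogenic bHLH factors and respond to BMP, rose in part. Id4 stood at 13.0, 9.09 and 6.71 CPM alone and 46.5, 39.0 and 29.9 CPM in co-culture (log2 2.04 ± 0.28, adjusted p = 8.50e-05). Id2 stood at 59.6, 46.8 and 35.6 CPM alone and 161, 149.8 and 95.4 CPM in co-culture (log2 1.52 ± 0.13, adjusted p = 2.56e-06). Id3 rose by 0.94 ± 0.16 (adjusted p = 0.000428), whereas Id1 was not called (log2 0.45 ± 0.38, adjusted p = 0.346), although without experiment 17_9 its value was 0.99 (adjusted p = 4.69e-06). In Id2 and Id4 every co-culture library lay above every library of NPCs alone. Among 38 genes of BMP and TGF-beta signalling with the Id genes 13 were higher and 10 lower (4 lower without experiment 25_9). The BMP receptor Bmpr1b rose by 0.96 ± 0.12 (adjusted p = 5.02e-05) and the BMP transducer Smad9 by 1.85 ± 0.19 (adjusted p = 1.31e-05). Of 38 Wnt genes 8 were higher and 12 lower, and 2 and 3 without experiment 25_9. The secreted Dkk3 rose by 2.11 ± 0.18 (adjusted p = 2.21e-06), and the receptor Ror2 (log2 -1.34 ± 0.19, adjusted p = 0.000113) and the Wnt-dependent factor Tcf7 (log2 -1.13 ± 0.14, adjusted p = 4.84e-05) fell.

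Genes by which cells hold to each other and to matrix changed in both directions. Of 49 ephrin and guidance genes 13 were higher and 14 lower, near the shares of all genes. Efnb2, the ephrin B2 ligand, stood at 93.7, 55.4 and 44.0 CPM alone and 26.6, 25.4 and 31.8 CPM in co-culture (log2 -1.14 ± 0.24, adjusted p = 0.00203). Its receptor Ephb2 stood at 238, 211 and 128 CPM alone and 33.0, 39.0 and 33.5 CPM in co-culture (log2 -2.39 ± 0.21, adjusted p = 3.03e-06). Both fell without overlap, and Efnb1 fell with them (log2 -0.95 ± 0.13, adjusted p = 8.10e-05). Efna1 rose by 2.26 ± 0.43, Sema4a by 2.92 ± 0.24 and Sema3b by 2.05 ± 0.25, each with an adjusted p of 0.000976 or lower. Of 48 cell adhesion genes 22 were higher and 9 lower. Vcam1, which anchors type-B cells in the niche, stood at 98.2, 73.5 and 101 CPM alone and 208, 186 and 188 CPM in co-culture (log2 1.10 ± 0.12, adjusted p = 1.26e-05). Cdh2, which encodes N-cadherin, was not called (log2 -0.19 ± 0.10, adjusted p = 0.155). The neural immunoglobulin genes Cntn1 (2.04 ± 0.32), Igsf11 (1.70 ± 0.13) and Lsamp (1.67 ± 0.19) rose on the log2 scale, with adjusted p of 0.000237 or lower. Without experiment 25_9 the adhesion counts were 14 higher and 4 lower.

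Matrix genes changed in both directions. Of 35 integrin and basement membrane genes 14 were higher and 13 lower. Tnc, tenascin C, a matrix protein of the stem cell niche, stood at 1853, 2009.8 and 2926 CPM alone and 479, 495 and 929 CPM in co-culture (log2 -1.86 ± 0.19, adjusted p = 1.15e-05). Fn1, fibronectin, fell as well (log2 -1.14 ± 0.30, adjusted p = 0.00683). Col4a1, a chain of the main basement membrane collagen, stood at 40.7, 31.6 and 33.0 CPM alone and 121, 129 and 106 CPM in co-culture (log2 1.76 ± 0.12, adjusted p = 3.19e-07), and Col4a2 rose by 1.89 ± 0.11 (adjusted p = 1.00e-07). The integrin Itgb4 rose from 0.212 ± 0.125 to 1.65 ± 0.607 CPM (log2 2.87 ± 0.50, adjusted p = 0.000538). Endothelial cells also make collagen IV, the summed endothelial markers reached 94.0 to 143 CPM in co-culture, and their part in these rises was not tested. Of 54 genes of interstitial matrix, proteases and inhibitors 21 were higher and 9 lower (5 lower without experiment 25_9). The proteoglycans of the neural matrix rose, Bcan by 1.55 ± 0.20 and Ncan by 1.16 ± 0.22, and so did their link protein Hapln1, by 2.19 ± 0.21 (adjusted p of 0.000945 or lower). Tnn, tenascin N, rose from 0.584 ± 0.579 to 5.02 ± 1.21 CPM (log2 3.25 ± 0.36, adjusted p = 1.95e-05).

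Most genes of mitochondrial fatty-acid oxidation rose, by small amounts. Of 30 tested, 21 were higher and 1 lower, with a median log2 fold change of 0.56. Fatty acids enter the mitochondrion through carnitine palmitoyltransferases. Cpt1a, the main form in most tissues, stood at 262, 269 and 280.0 CPM alone and 282, 265 and 271 CPM in co-culture and was not called (log2 0.01 ± 0.10, adjusted p = 0.931). The neural form Cpt1c (log2 0.74 ± 0.11, adjusted p = 0.000175) and the inner membrane enzyme Cpt2 (log2 0.84 ± 0.09, adjusted p = 2.26e-05) rose. Cpt2 stood at 30.3, 29.4 and 32.6 CPM alone and 57.4, 54.1 and 53.3 CPM in co-culture, without overlap. Within the spiral, the dehydrogenases Acadvl (log2 0.76 ± 0.10) and Acadm (log2 0.62 ± 0.10) and the thiolase Acaa2 (log2 0.67 ± 0.10) rose, with adjusted p of 0.000301 or lower. Acadl was not called (log2 0.15 ± 0.09, adjusted p = 0.194). The largest rise of the list was of Acsl6, which activates long-chain fatty acids in brain, at 43.8, 46.9 and 53.4 CPM alone and 187, 163 and 148 CPM in co-culture (log2 1.79 ± 0.14, adjusted p = 1.05e-06). Acad11 rose by 1.01 ± 0.10 (adjusted p = 7.72e-06).

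Of 30 genes of PPAR receptors, coactivators and targets 15 were higher and 6 lower (8 and 3 without experiment 25_9). Of the receptors, Ppard rose by 0.55 ± 0.12 (adjusted p = 0.00189). Ppara was higher (log2 0.84 ± 0.25, adjusted p = 0.0132), a call lost in 4 of the 19 alternative fits. Pdk4, which shuts pyruvate out of the TCA cycle and is a PPAR target, stood at 10.8, 9.29 and 8.04 CPM alone and 39.1, 28.3 and 24.6 CPM in co-culture (log2 1.69 ± 0.19, adjusted p = 1.98e-05). Txnip, which restrains glucose uptake, stood at 1.75, 10.97 and 10.3 CPM alone and 68.1, 53.8 and 51.3 CPM in co-culture (log2 2.86 ± 0.51, adjusted p = 0.000634). In Txnip the groups did not overlap and the library of NPCs alone of 17_9 was the lowest. The coactivator Ppargc1a was not called (log2 0.29 ± 0.14, adjusted p = 0.11), but was at 0.36 (adjusted p = 0.00408) without experiment 17_9 and 0.29 (adjusted p = 0.0285) in the model of only the 6 p53+/+ libraries. Of 30 genes of lipid droplets, lipolysis and lipid transport 20 were higher and 3 lower (1 lower without experiment 25_9). The droplet protein Cidea rose from 0.246 ± 0.193 to 1.48 ± 0.647 CPM (log2 2.63 ± 0.43, adjusted p = 0.000346). Lipoprotein lipase Lpl rose by 1.37 ± 0.13 (adjusted p = 5.06e-06) and the triglyceride lipase Pnpla2 by 0.82 ± 0.14 (adjusted p = 0.000429).

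Genes of fatty-acid synthesis were mostly higher or not called, and those of cholesterol synthesis lower or not called. Of 26 genes of fatty-acid synthesis, elongation and desaturation 15 were higher and 4 lower (2 lower without experiment 25_9). Scd2, the main desaturase of brain, stood at 4862, 5024 and 6008 CPM alone and 9304, 8427 and 8625 CPM in co-culture (log2 0.74 ± 0.13, adjusted p = 0.000544). Acacb, the acetyl-CoA carboxylase of the mitochondrial surface, whose product inhibits fatty-acid entry, rose from 1.42 ± 0.458 to 7.28 ± 1.79 CPM (log2 2.32 ± 0.25, adjusted p = 1.56e-05). The synthase Fasn (log2 0.09 ± 0.14, adjusted p = 0.594) and the cytosolic carboxylase Acaca (log2 -0.16 ± 0.12, adjusted p = 0.293) were not called. Of 25 cholesterol synthesis genes 17 were lower and none was higher, and the count was 10 without the block of experiment numbers and 10 without experiment 25_9. Insig1, a sterol sensor, stood at 442, 362 and 449 CPM alone and 191, 204 and 245 CPM in co-culture (log2 -0.98 ± 0.16, adjusted p = 0.000317), and the epoxidase Sqle fell as well (log2 -0.90 ± 0.14, adjusted p = 0.000255).

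Genes of the TCA cycle and oxidative phosphorylation were mostly not called, and those of glycolysis were more often higher than lower. Of 30 genes of glycolysis and lactate 13 were higher (43.3%, beside 26.2% of all genes) and 3 lower. Gapdh stood at 1602, 1762 and 1767 CPM alone and 1738, 2001 and 1689 CPM in co-culture and was not called (log2 0.08 ± 0.12, adjusted p = 0.622). The kinases that inactivate pyruvate dehydrogenase rose, Pdk2 by 1.60 ± 0.13 (adjusted p = 2.31e-06) and Pdk1 by 1.21 ± 0.15 (adjusted p = 5.23e-05). Pfkm, a phosphofructokinase, rose by 1.25 ± 0.12 (adjusted p = 6.93e-06) and Ldhb, the lactate dehydrogenase subunit of oxidative tissues, by 0.75 ± 0.11 (adjusted p = 0.000144). Of 24 TCA cycle genes 8 were higher and 1 lower, and 3 higher without experiment 25_9. Pcx, which makes oxaloacetate from pyruvate in astrocytes, stood at 98.5, 111 and 109 CPM alone and 215, 246 and 198 CPM in co-culture (log2 1.04 ± 0.12, adjusted p = 3.14e-05). Of 60 genes of oxidative phosphorylation 19 were higher and none lower. This share of 31.7% is near the 26.2% of all genes, and the count was 11 without the block and 1 without experiment 25_9.

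Genes of metal and oxidant defence were more often higher than lower. Of 38 tested, 22 were higher and 4 lower (2 lower without experiment 25_9). The metallothionein gene Mt1 stood at 135, 128 and 82.3 CPM alone and 731, 1046 and 370.5 CPM in co-culture (log2 2.57 ± 0.17, adjusted p = 4.10e-07), and Mt2 rose by 2.64 ± 0.18 (adjusted p = 3.57e-07). Prdx6, a peroxidase of oxidised phospholipids, stood at 728, 596 and 460.1 CPM alone and 1984, 2085 and 1361 CPM in co-culture (log2 1.61 ± 0.12, adjusted p = 1.29e-06). Nqo1, a quinone reductase, rose by 1.499 ± 0.16 (adjusted p = 1.65e-05), and the factor behind it, Nfe2l2, was not called (log2 0.15 ± 0.10, adjusted p = 0.204), a call gained in 1 of the 19 alternative fits, without experiment 17_9. Of 35 protein folding and heat shock genes 10 were higher and 13 lower, and 6 and 5 without experiment 25_9. The small heat shock protein genes Hspb1 (2.74 ± 0.42), Hspb6 (2.05 ± 0.12) and Hspb8 (1.86 ± 0.17) rose on the log2 scale, with adjusted p of 0.000223 or lower. Hsp90ab1 was lower (log2 -0.41 ± 0.09, adjusted p = 0.0037). Of 27 hypoxia genes 8 were higher and 9 lower, and 4 and 1 without experiment 25_9. Epas1, which encodes HIF-2α and is strong in endothelial cells and astrocytes, stood at 72.1, 67.7 and 66.5 CPM alone and 312, 270.3 and 263 CPM in co-culture (log2 2.03 ± 0.13, adjusted p = 2.08e-07).

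Most antiviral effectors of the interferon response rose. Interferons act through the receptor subunits IFNAR1 and IFNAR2 and a complex that holds STAT2 and IRF9 and binds a repeat of GAAA letters in the promoters of antiviral genes. Promoters of 4 antiviral genes are printed for this repeat, the 4 called effectors with the largest rises among those that hold it. Promoters on a chromosome barred from printing were passed over in this choice. The letters searched were GAAANNGAAA on both strands, in the 250 bases before a start, and overlapping matches are run together in capitals, the repeat on the opposite strand reading as TTTC letters. Sequences are RefSeq promoters of GRCm38.p6 on the strand of the gene, and the capitals mark the repeat.
Oas1a (chr5:120907526-120907565, - strand): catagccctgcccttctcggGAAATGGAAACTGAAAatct
Ifit1 (chr19:34640765-34640833, + strand): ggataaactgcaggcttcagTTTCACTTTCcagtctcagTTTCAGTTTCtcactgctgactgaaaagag
Ifit3 (chr19:34583353-34583436, + strand): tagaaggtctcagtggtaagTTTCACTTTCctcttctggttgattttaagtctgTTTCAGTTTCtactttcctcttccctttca
Isg15 (chr4:156200855-156200916, - strand): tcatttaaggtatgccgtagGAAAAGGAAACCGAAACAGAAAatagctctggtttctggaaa
Oas1a encodes a sensor that makes the messenger 2-5A from double-stranded RNA. It stood at 0, 0.0497 and 0 CPM alone and 5.18, 2.41 and 3.21 CPM in co-culture, had 1 count over the 3 libraries of NPCs alone and shares reads with near-identical copies, so no fold is given. Ifit1 and Ifit3 encode proteins that bind viral RNA. Ifit3 stood at 3.12, 3.43 and 1.12 CPM alone and 242, 211 and 178 CPM in co-culture (log2 6.43 ± 0.28, adjusted p = 1.69e-08). Isg15, a ubiquitin-like protein, stood at 0.875, 1.24 and 0.559 CPM alone and 36.1, 46.7 and 33.6 CPM in co-culture (log2 5.48 ± 0.23, adjusted p = 1.45e-08). In each of these genes all co-culture libraries lay above all libraries of NPCs alone. The repeat was in 20 of the 51 promoters listed for the antiviral effectors (39.2%), 2 of 17 for antigen presentation (11.8%) and 1 of 9 for sensors (11.1%), against 2.41% of the promoters of all genes tested and 2.98% of all in the reference table. These matches are of letters, and binding was not measured.

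Of 55 antiviral effectors tested, 52 were higher and 1 lower, with a median log2 fold change of 3.52. Of these genes 10 had fewer than 10 counts in every library of NPCs alone and passed the filter through the co-cultures, so these counts and the median are a description and are not set against those of all genes. The exceptions were Ifitm2 and Slfn9, not called (adjusted p = 0.19 and 0.671), and Samhd1, which fell (log2 -0.51 ± 0.11, adjusted p = 0.00179). Usp18, a brake on the receptor, stood at 1.06, 1.09 and 0.458 CPM alone and 52.4, 53.2 and 57.2 CPM in co-culture (log2 5.99 ± 0.30, adjusted p = 5.22e-08). Bst2, which tethers budding virus, stood at 2.75, 3.43 and 3.00 CPM alone and 56.6, 64.4 and 51.4 CPM in co-culture (log2 4.22 ± 0.15, adjusted p = 8.12e-09). Iigp1, a GTPase that follows interferon gamma in particular, rose by 5.84 ± 0.45 (adjusted p = 1.22e-06) and Irgm1, of the same family, by 3.32 ± 0.19 (adjusted p = 9.97e-08). Among the sensors, of which 10 of 12 were higher and none lower, Ifih1, which encodes MDA5, stood at 3.75, 4.12 and 3.10 CPM alone and 37.6, 29.9 and 41.8 CPM in co-culture (log2 3.32 ± 0.19, adjusted p = 1.12e-07). Ddx58, which encodes RIG-I, rose by 2.91 ± 0.15 (adjusted p = 5.13e-08). Mb21d1, which encodes the DNA sensor cGAS, was not called (log2 -0.41 ± 0.19, adjusted p = 0.0952).

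Of 18 interferon receptors and signal transducers tested 6 were higher and 2 lower (0 lower without experiment 25_9). Irf7, which amplifies interferon production, stood at 0.500, 0.993 and 0.458 CPM alone and 28.6, 31.2 and 26.8 CPM in co-culture (log2 5.48 ± 0.25, adjusted p = 2.25e-08). Stat2 rose by 2.18 ± 0.19 and Irf9 by 2.87 ± 0.18, with adjusted p of 3.65e-06 or lower. Of the receptor subunits, Ifnar2 was not called (log2 -0.19 ± 0.11, adjusted p = 0.171) and Ifnar1 was lower (log2 -0.35 ± 0.09, adjusted p = 0.00901), a call lost in 4 of the 19 alternative fits. None of the interferon genes Ifnb1, Ifna2, Ifna4 and Ifng passed the filter on low counts. Of 21 antigen presentation genes 20 were higher and none lower, with a median log2 fold change of 1.43. B2m, the light chain of class I molecules, stood at 78.4, 63.8 and 59.0 CPM alone and 223, 197 and 232 CPM in co-culture (log2 1.70 ± 0.11, adjusted p = 2.70e-07). Psmb8, a subunit of the immunoproteasome, stood at 2.44, 2.78 and 1.83 CPM alone and 29.6, 29.4 and 21.6 CPM in co-culture (log2 3.52 ± 0.18, adjusted p = 5.48e-08). The peptide transporter Tap1 rose by 1.86 ± 0.11 (adjusted p = 1.69e-07). H2-K1 and H2-D1, class I heavy chains that share reads with close relatives, rose by 1.43 ± 0.12 and 2.19 ± 0.16 (adjusted p = 2.92e-06 and 8.39e-07). Of 16 chemokine and cytokine genes 5 were higher and 2 lower, and 8 were higher without experiment 17_9. Cxcl14 rose by 1.99 ± 0.10 (adjusted p = 4.44e-08) and Il18 by 1.26 ± 0.18 (adjusted p = 0.000112). Cxcl10, an interferon-induced chemokine, stood at 30.1, 2.48 and 1.88 CPM alone and 44.7, 32.7 and 32.9 CPM in co-culture and was called with the block (log2 2.36 ± 0.55, adjusted p = 0.00344) and not without it (adjusted p = 0.115). The library of NPCs alone of 17_9 lay near the co-cultures, and without it the value was 3.77 (adjusted p = 2.54e-05). Beside these rises the summed endothelial markers went from at most 15.7 to at least 94.0 CPM, and which cells carried the interferon-induced RNA was not tested.

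Imprinted genes changed in both directions. Of 20 imprinted genes of growth control 6 were higher and 5 lower, near the shares of all genes, and 3 and 3 without experiment 25_9. Mest stood at 1885, 1179 and 1197 CPM alone and 348, 367 and 524 CPM in co-culture (log2 -1.77 ± 0.23, adjusted p = 5.59e-05). Plagl1, a zinc finger factor, fell (log2 -1.53 ± 0.25, adjusted p = 0.000289), while the growth inhibitor Grb10 rose by 1.60 ± 0.22 (adjusted p = 9.39e-05) and the noncoding RNA H19 by 2.14 ± 0.18 (adjusted p = 2.06e-06). Among genes often used for scaling, Tbp was at log2 -0.34 ± 0.11 (adjusted p = 0.021, lost in 7 of the 19 alternative fits) and Hprt at 57.1, 35.8 and 39.3 CPM alone and 15.2, 12.2 and 16.97 CPM in co-culture (log2 -1.58 ± 0.21, adjusted p = 7.85e-05). Hprt therefore differed by more than 2-fold between the groups.

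Trp53, the gene deleted in the comparison genotype, stood at 80.3, 96.6 and 109 CPM alone and 61.8, 65.9 and 78.8 CPM in co-culture in p53+/+ NPCs (log2 -0.46 ± 0.15, adjusted p = 0.0222), a call lost in 6 of the 19 alternative fits. In the p53-/- libraries its mean was 14.6 ± 2.82 CPM alone and 17.1 ± 2.99 in co-culture. Of 49 p53 targets 5 were higher (10.2%, beside 26.2% of all genes) and 14 lower (28.6%, beside 24.1%) in p53+/+ co-culture. The share of lower genes is near that of all genes, and the median log2 fold change was -0.27. These are RNA levels. In the study a luciferase reporter of p53 activity, another measure, was higher in co-cultured NPCs than in NPCs alone. Without experiment 25_9, 1 of the p53 targets was higher and 7 were lower. The ubiquitin ligase gene Mdm2, a standard readout of p53 activity, was not called (log2 -0.32 ± 0.13, adjusted p = 0.0583), nor was Cdkn1a. Mdm2 was called lower in 4 of the 19 alternative fits, at -0.32 (adjusted p = 0.0331) with only the 6 p53+/+ libraries. Plk2, a kinase induced by p53, stood at 269, 115 and 111 CPM alone and 61.8, 55.5 and 61.4 CPM in co-culture and fell (log2 -1.34 ± 0.26, adjusted p = 0.00109). Ccnd2 and Notch1, which also stand in other lists here, were among the lower genes.

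The response of p53+/+ NPCs was compared with that of p53-/- NPCs, with which it shares no library. Co-culture raised 3335 genes and lowered 3192 in p53-/- NPCs. The genotypes shared 2658 higher genes, 73.8% of those of p53+/+ and 79.7% of those of p53-/-, and 2329 lower genes, 70.2% and 73.0%. A further 11 genes were called in opposite directions, and none of them passed the test of the difference itself. That test, the interaction of co-culture and genotype, called 11 of 13745 genes (0.0800%), 3 with a higher and 8 with a lower co-culture effect in p53-/- than in p53+/+ NPCs, while 1870 genes had an unadjusted p under 0.05. All 8 lower genes rose in p53+/+ co-culture, and 7 of them are of the interferon response or known to be interferon-induced. For Isg15 the log2 fold change was 5.48 ± 0.23 in p53+/+ and 2.79 ± 0.18 in the p53-/- cells (adjusted p of the difference = 0.00429). For Ifit1 it was 6.47 ± 0.28 in p53+/+ and 3.32 ± 0.22 in the p53-/- cells (adjusted p of the difference = 0.00429). Mean levels of Isg15 went from 0.892 ± 0.341 to 38.8 ± 6.98 CPM in p53+/+ NPCs and from 5.91 ± 2.95 to 39.8 ± 11.5 CPM in p53-/- NPCs. Those of Ifit1 went from 1.37 ± 0.849 to 116 ± 10.9 CPM in p53+/+ NPCs and from 10.8 ± 4.15 to 106 ± 11.9 CPM in p53-/- NPCs. In both genes the means of the co-cultures lay within 1 SD of each other and those of NPCs alone did not, a description that was not tested. Mki67 fell by 1.88 on the log2 scale in p53+/+ and was at log2 -0.24 ± 0.18 in the p53-/- cells (adjusted p of the difference = 0.0468). Ticrr, a factor that fires replication origins, fell in p53+/+ NPCs (log2 -1.50 ± 0.12) and was at -0.49 ± 0.11 in the p53-/- cells (adjusted p of the difference = 0.0493). Ggta1, which adds a galactose to glycans, rose in both, by 2.28 ± 0.18 and 4.21 ± 0.24 (adjusted p of the difference = 0.0493). Mean levels of Ggta1 went from 12.3 ± 3.36 to 60.0 ± 16.2 CPM in p53+/+ NPCs. In p53-/- NPCs they went from 0.935 ± 0.204 to 17.5 ± 4.80 CPM, below those of p53+/+ NPCs both alone and in co-culture. The number of genes called here changed with the processing, from 1 without experiment 1_10 to 275 by the DESeq2 Wald test, with 163 without experiment 17_9 and 5 without the block. Of the antiviral effectors 52 were higher in p53-/- NPCs, with a median log2 fold change of 2.79 beside 3.52 in p53+/+. Of the mitosis genes 58 were lower, with a median of -0.78 beside -1.59. Of the mitochondrial fatty-acid oxidation genes 19 were higher and of the lysosome genes 33, with medians of 0.39 and 0.49 beside 0.56 and 0.62. These differences between lists were not tested.

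**Figure D5:**
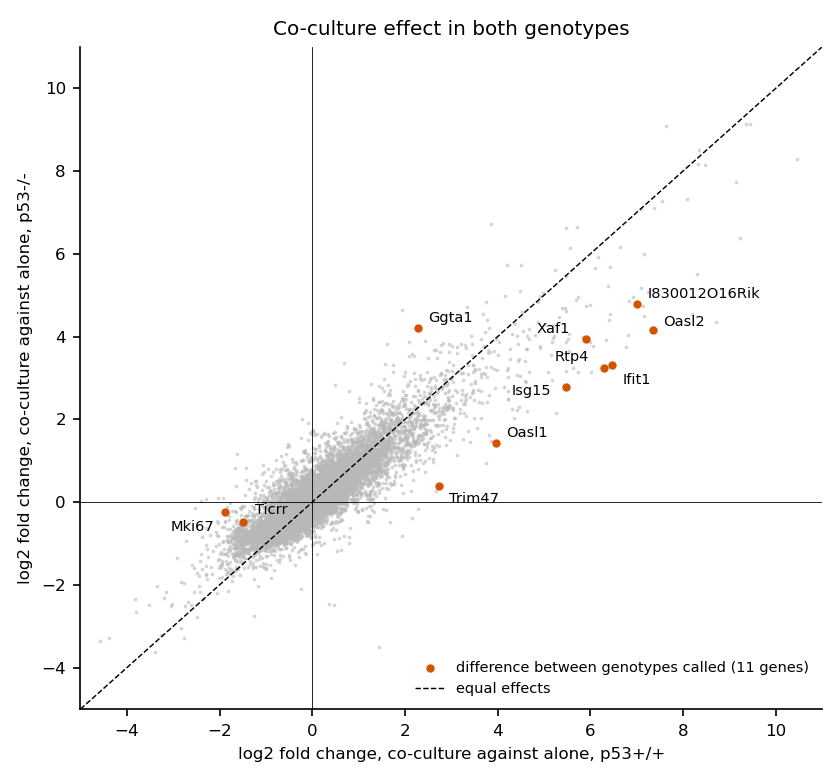
Log2 fold change of co-culture against alone in p53+/+ NPCs (x axis) and in p53-/- NPCs (y axis) for 13745 genes, with the 11 genes whose effects differed between genotypes in orange and a dashed line of equal effects. The 8 orange genes below the line rose more in p53+/+ NPCs, and the 3 above it fell less or rose more in p53-/- NPCs.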

How the data were processed

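RNA was sequenced from 12 libraries, 3 in each of 4 groups. The authors aligned reads to mm9 with TopHat2 2.0.11 and deposited raw counts per gene from HTSeq 0.6.1. The strand setting of the counting is not given in the sources used here. Here edgeR 4.0.16 in R 4.3.3 fitted all 12 libraries by quasi-likelihood, with 1 coefficient per group, the experiment number as a block, TMM scaling and edgeR's default low-count filter (filterByExpr), and with Benjamini-Hochberg adjustment over 13745 genes at a threshold of 0.05. A fold change is the fitted log2 value, its SE follows from the F statistic, and CPM is counts per 1000000 of a library after TMM. The sources state that samples with the same number are paired. Deviations from group means correlated at 0.128 to 0.618 between the 18 pairs with the same number and at -0.608 to 0.241 between the 36 others. The number of reads sets the precision only in part, since libraries of 1 group differed by at least 13.2 times the counting variance, and none was a repeat of another. The 27 rows whose symbols read as dates (at most 0.41% of a library) were not named. The members and gene lists were chosen with earlier results of these data known. Named genes are the 12 largest called changes on each side at a mean log2 CPM of at least 2, the largest called changes and key members of each list, the 10 largest CPM gains and losses, genes with no count alone, common reference genes, genes called in the interaction and the 4 promoter genes per element. Ccnd3, Rpa1, Pttg1, Rrp1b, Utp6, Ifitm2, Slfn9, Samhd1 and Oasl1 were named after their values were seen. Promoters are of GRCm38.p6, not mm9, so no position was read from the counts. DESeq2 1.42.0 and other scalings, filters, fits and left-out libraries were alternatives. The code was tested on simulated counts. Some genes are not reported here.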

Additional observations from a re-analysis of the deposited data

Results flagged for a closer look

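The co-culture effect differed between p53-/- and p53+/+ NPCs in 11 genes by the interaction term of the edgeR fit at an adjusted p under 0.05. Differences are given as the effect in p53-/- minus that in p53+/+ NPCs, on the log2 scale. The effect was smaller in p53-/- NPCs for the interferon-induced genes Oasl2 (-3.19 ± 0.42), Ifit1 (-3.15 ± 0.35), Rtp4 (-3.05 ± 0.32), Isg15 (-2.69 ± 0.30), Oasl1 (-2.54 ± 0.41), I830012O16Rik (-2.24 ± 0.34) and Xaf1 (-1.97 ± 0.29), and for Trim47 (-2.34 ± 0.29), a ubiquitin ligase. It was higher in p53-/- NPCs for Ggta1 (1.93 ± 0.30), Mki67 (1.64 ± 0.25) and Ticrr (1.02 ± 0.16). Adjusted p lay between 0.00429 for Rtp4 and 0.0493 for Oasl1. For Trim47 the effects were 2.73 ± 0.22 in p53+/+ and 0.39 ± 0.19 in p53-/- NPCs. For Oasl1 they were 3.96 ± 0.32 and 1.42 ± 0.23. Each gene with a smaller effect had a higher mean level alone in p53-/- than in p53+/+ NPCs. Mean Trim47 went from 1.505 to 9.852 CPM in p53+/+ and from 6.272 to 8.271 CPM in p53-/- NPCs. Mean Oasl1 went from 0.508 to 7.447 CPM and from 4.335 to 11.47 CPM. In co-culture the p53-/- mean was higher for Isg15 and Oasl1. It was lower for the others, such as I830012O16Rik (78.61 beside 119.5 CPM). Levels were not tested between genotypes. I830012O16Rik shares sequence with other Ifit genes, and its reads may be split between them. The summed endothelial markers were not used in the interaction test, and the part of bmvEC RNA in the differences in effect was not tested.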

How the results depend on the processing

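Without the block of experiment numbers 2908 genes were higher and 2522 lower. Among the named genes the calls of Cxcl10, Fabp7, Foxj1, Ifnar1, Rbl2, Sox2 and Tbp were lost without it and no other call changed. Called genes then went from 8 to 4 for higher neuroblast genes, from 5 to 3 for higher and from 2 to 1 for lower chemokines and cytokines, from 12 to 7 for lower Wnt genes, from 9 to 5 for lower hypoxia genes, from 10 to 6 for higher folding genes, from 7 to 3 for higher Polycomb genes, from 5 to 3 for lower potassium channel and for lower imprinted genes, from 4 to 1 for lower fatty-acid synthesis genes, from 3 to 1 for lower glycolysis genes, from 4 to 0 for higher immediate early genes, from 2 to 1 for lower mural genes, and from 2 and 1 to 0 for lower interferon signalling and astroglial channel genes. Leaving out an experiment or a single library gave 2144 to 3909 higher and 1658 to 3412 lower genes, the lowest in both cases without experiment 25_9. Genes over 2-fold higher numbered 1365 to 1688 under those fits and 1014 when 10 counts were required in every library, a filter that removes genes near 0 alone. Genes over 2-fold lower numbered 690 with the main filter and 570 with that one. Genes whose effect differed between genotypes numbered 11 with all libraries, 5 without the replicate block, 7 with library size alone, 275 by the DESeq2 Wald test with the block, 49 with no low-count filter and 4 at a threshold of 0.01. Leaving out an experiment or a library gave 1 (without experiment 1_10) to 163 (without experiment 17_9), with 2 without experiment 25_9. The cause was not tested. Leave-one-out fits turned the sign of 6 named genes that were not called in any of them. Their log2 values there ranged from -0.26 to 0.10 for Cdkn1a, -0.022 to 0.054 for Cpt1a, -0.060 to 0.27 for Fasn, -0.018 to 0.18 for Gapdh, -0.14 to 0.11 for Rrp1b and -0.33 to 0.12 for Slfn9. Cpt1a was at -0.0029 with no low-count filter, and Rrp1b at 0.035 with upper-quartile factors and 0.013 with 10 counts required in every library. Under settings other than leave-one-out 26 of 2252 values of named genes moved to the other side of the threshold. No library of bmvECs alone was analysed, so the share of their RNA cannot be set.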

Other observations

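Among the largest falls were genes of cell surface and matrix. Ajap1, a membrane protein of adherens junctions, stood at 48.9, 39.6 and 34.8 CPM alone and 7.63, 6.23 and 6.22 CPM in co-culture (log2 -2.61 ± 0.16, adjusted p = 2.24e-07). Cntn6, a neural adhesion protein, stood at 17.9, 7.70 and 7.27 CPM alone and 1.36, 2.82 and 1.79 CPM in co-culture (log2 -2.30 ± 0.37, adjusted p = 0.000317). Hs3st1, which adds a sulfate to heparan sulfate, stood at 22.3, 7.95 and 3.87 CPM alone and 1.63, 2.002 and 2.05 CPM in co-culture (log2 -2.17 ± 0.53, adjusted p = 0.00486). In these genes every co-culture library lay below every library of NPCs alone. Tmem200a and Fndc1 fell as well, at log2 -2.54 ± 0.19 and -2.30 ± 0.22 (adjusted p = 1.12e-06 and 6.46e-06).

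Among the genes that gave up most CPM was Igfbp3, a secreted protein that binds insulin-like growth factors, at 2863, 1555 and 1636 CPM alone and 789, 758 and 954 CPM in co-culture (log2 -1.23 ± 0.21, adjusted p = 0.000552). Tubb5, a tubulin of dividing cells, stood at 1295, 1487 and 1500.0 CPM alone and 456, 673 and 706 CPM in co-culture (log2 -1.24 ± 0.14, adjusted p = 2.84e-05). Among those that gained most were Cst3, a secreted inhibitor of cathepsins, at 370.1, 306 and 216 CPM alone and 2147, 2389 and 1180.0 CPM in co-culture (log2 2.65 ± 0.13, adjusted p = 3.80e-08), and Cpe, a carboxypeptidase of the secretory pathway, at 1371, 1252 and 1065 CPM alone and 3114, 3056 and 2381 CPM in co-culture (log2 1.21 ± 0.10, adjusted p = 1.38e-06). Of 28 immediate early genes 4 were higher and 5 lower in p53+/+ co-culture, against 26.2% and 24.1% of all genes, and 13 were higher without experiment 17_9 and 0 without the block.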
